A study of Mus musculus with 28 samples.

Results

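Homeostatic microglia genes are a set of 9 genes that mark resting microglia: Csf1r, Tmem119, P2ry12, P2ry13, Cx3cr1, Olfml3, Siglech, Gpr34 and Selplg. They were chosen by symbol as known markers, with no measured value in the rule but with earlier results of these data known. All 9 were found among the 25900 genes of the count table. All 9 also passed the filter on low counts, which kept 16110 genes. The data are RNA-seq of polyA RNA from frontal cortex of mice aged 20 months that carried TDP-43 Q331K knock-in alleles or did not. TDP-43, encoded by Tardbp, is an RNA-binding protein that accumulates in amyotrophic lateral sclerosis and frontotemporal dementia, and Q331K is a substitution linked to amyotrophic lateral sclerosis. There were 10 libraries of homozygous mice (HOM), 10 of heterozygous mice (HET) and 8 of wild-type mice (WT), all on the C57BL/6 background. The labels state no sex, litter or batch and do not say that each library is a separate animal, so p-values measure only the spread between libraries. The knock-in allele sits in the endogenous gene, so every cell type of the tissue carries it.

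Microglia are the resident macrophages of the brain. Their survival depends on the receptor encoded by Csf1r, which binds the cytokines CSF-1 and IL-34, and their resting identity is maintained by TGF-beta and by transcription factors such as PU.1, the product of Spi1. In many disease models the homeostatic genes fall while lysosomal and lipid-handling genes rise, so the set is commonly read as a measure of that state. In bulk tissue a higher level can come from more microglia, from more RNA of the gene per microglia or from other cells that express it. These cannot be told apart here.

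The members share no single chromosome, but P2ry13 and P2ry12 lie close together, as do Tmem119 and Selplg. On GRCm38, P2ry13 lies at chr3:59207896-59210882 and P2ry12 at chr3:59216271-59262831, both on the minus strand. Tmem119 lies at chr5:113793729-113800516 and Selplg at chr5:113817798-113830501, also both on the minus strand. RefSeq promoter windows (GRCm38.p6, 250 bases before to 50 after the start) matched 5 of the 9 genes: P2ry13, P2ry12, Olfml3, Siglech and Cx3cr1. They were searched on both strands for GAGGAA, the core recognised by PU.1. It was found in 2 of the 5 windows, P2ry13 and Siglech, and in 28.3% of all 32851 windows of that length. GAGGAA followed directly by GT was in 0 of the 5 and in 3.2% of all windows. The windows of 3 genes, cut to 30 bases after the start and written 5′ to 3′ on the strand of the gene, show both matches and the adjacent P2ry12 for comparison, with the match in capitals (TTCCTC is GAGGAA on the other strand). They span chr3:59210853-59211132 (minus strand), chr3:59262956-59263235 (minus strand) and chr7:55767934-55768213 (plus strand). A match in these letters is a description and shows no binding. A window without GAGGAA may hold another form, which was not searched for.
P2ry13: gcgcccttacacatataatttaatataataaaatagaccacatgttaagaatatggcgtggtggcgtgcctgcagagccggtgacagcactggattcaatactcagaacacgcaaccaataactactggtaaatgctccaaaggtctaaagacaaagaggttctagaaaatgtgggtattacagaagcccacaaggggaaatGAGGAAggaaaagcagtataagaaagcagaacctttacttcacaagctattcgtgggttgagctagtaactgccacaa
P2ry12: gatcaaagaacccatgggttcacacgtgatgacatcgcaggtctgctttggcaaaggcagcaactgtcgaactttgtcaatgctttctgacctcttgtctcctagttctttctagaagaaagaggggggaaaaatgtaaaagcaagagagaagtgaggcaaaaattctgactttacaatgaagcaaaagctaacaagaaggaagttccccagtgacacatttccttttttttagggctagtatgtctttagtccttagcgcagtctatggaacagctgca
Siglech: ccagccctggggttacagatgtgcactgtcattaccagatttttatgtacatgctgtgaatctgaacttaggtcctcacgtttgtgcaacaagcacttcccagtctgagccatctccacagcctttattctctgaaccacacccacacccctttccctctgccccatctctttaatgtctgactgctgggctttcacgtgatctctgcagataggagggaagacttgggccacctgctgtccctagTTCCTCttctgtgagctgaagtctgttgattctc

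Libraries held 30.5 to 62.6 M counted reads in HOM, 45 to 74.9 M in HET and 46.5 to 64.1 M in WT, and HOM 2 and HOM 1 were the shallowest. The 9 genes had from 385 to 8107 reads per library. Tardbp averaged 349 ± 18.9 CPM (counts per M, that is per 1000000, reads) in HOM, 328 ± 13.3 CPM in HET and 321 ± 13.6 CPM in WT (SD, n = 10, 10 and 8), with a log2 fold change of HOM over WT of 0.12 (edgeR adjusted p = 0.0185). The counts do not separate the alleles and so do not check the genotype labels. Along the first principal component, which held 13% of the variance, HOM 3 and WT 6 stood at opposite ends. These 2 libraries also had the highest and the lowest summed level of 17 meningeal fibroblast markers, at 1400 and 309 CPM. Of the 17, Ptgds was the most abundant, at means of 420 CPM in HOM, 418 CPM in HET and 291 CPM in WT, so the sum largely follows that gene.

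Between HOM and WT, 6 of the 9 genes were higher in HOM and 0 were lower by edgeR's quasi-likelihood test at a Benjamini-Hochberg adjusted p under 0.05 over 16110 genes. They were Csf1r, Olfml3, Tmem119, Selplg, Cx3cr1 and Siglech, with folds of 1.12 to 1.27. P2ry13, Gpr34 and P2ry12 did not pass. By the same test 7.61% of all genes passed, 3.9% higher and 3.71% lower. At an unadjusted p under 0.05 the share was 77.8% of the 9 genes and 24.6% of all genes. The median log2 fold change was 0.18 over the 9 genes and 0.00502 over all genes tested. With a score of meningeal markers as a term 3 of the 9 passed, and 4 passed when WT 6 and HOM 3 were left out, beside 2.55% and 3.16% of all genes in those fits.

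**Figure D1:**
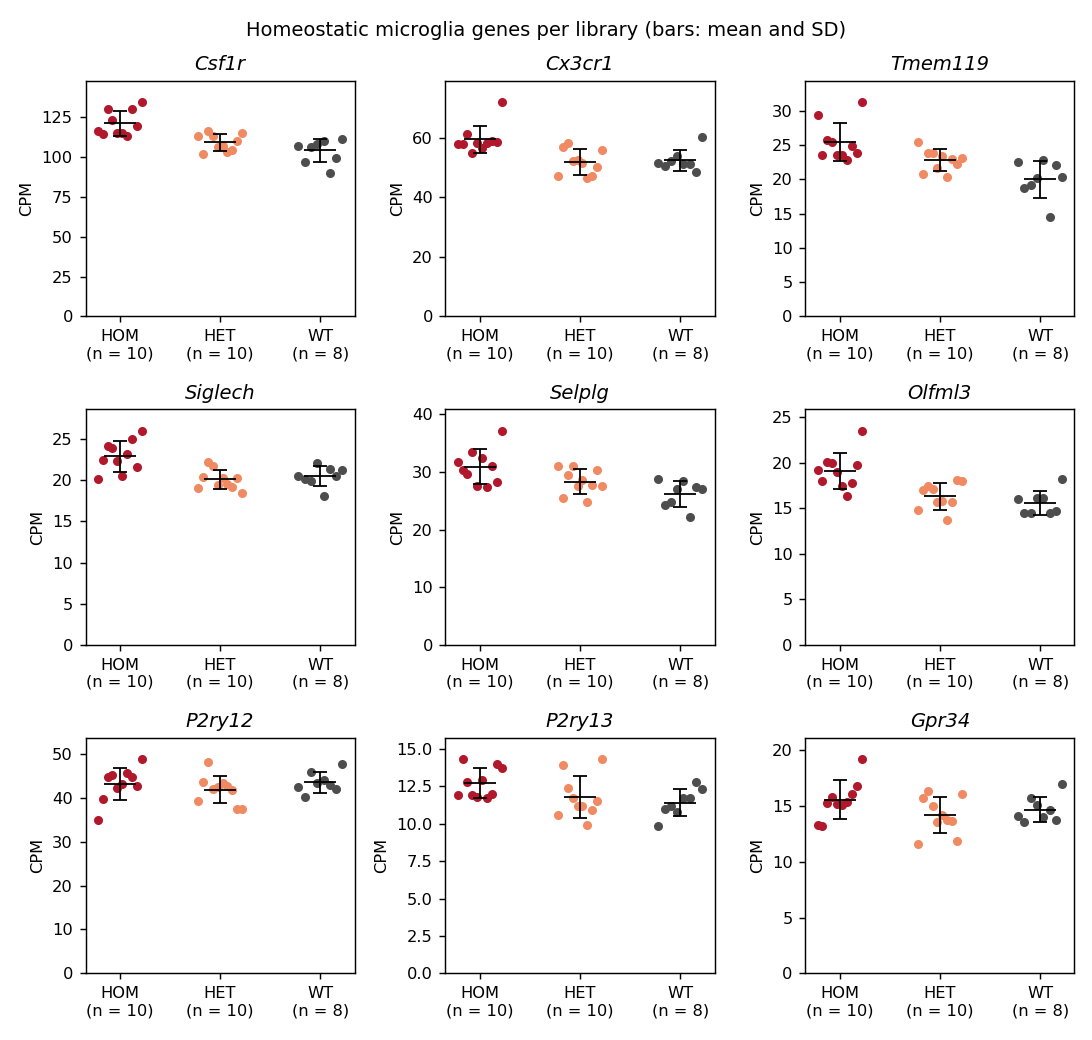
Level of each of the 9 genes in CPM (y axes) in every library (points) by genotype (x axes, HOM, HET, WT), with the mean and SD as bars. All 10 HOM libraries lie above the highest WT library for Csf1r, while the P2ry12 groups overlap throughout.

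The receptor Csf1r gave the clearest separation. It stood at 113, 117 and 134 CPM in HOM (lowest, median, highest), at 102, 108 and 116 CPM in HET, and at 90.1, 106 and 111 CPM in WT. All 10 HOM libraries were above the highest WT library, and the HET range overlapped both. HOM exceeded WT by 0.22 on the log2 scale (SE 0.04, edgeR adjusted p = 0.00144). Exons of Csf1r overlap those of Hmgxb3 on the other strand by 873 bases in GENCODE vM21, and the strand setting of the count is not given in the sources used here. Hmgxb3 itself averaged 47.2 CPM in HOM and 46.6 CPM in WT (log2 fold change 0.02, edgeR adjusted p = 0.807).

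Cx3cr1 encodes the receptor for the neuronal chemokine fractalkine. Its levels were 54.7, 58.3 and 71.8 CPM in HOM, 46.5, 51.8 and 58.3 CPM in HET, and 48.6, 51.4 and 60.2 CPM in WT. Only 2 HOM libraries exceeded the highest WT library, WT 8, but 7 of the 8 WT libraries lay below the lowest HOM library. An antisense gene overlaps its exons by 78 bases, and reads of the 2 cannot be told apart without the strand setting. The log2 fold change was 0.18 (SE 0.049, edgeR adjusted p = 0.0242). The call was lost when WT 2, WT 6 or WT 7 was left out, with edgeR adjusted p of 0.0519, 0.0522 and 0.0511.

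The P2Y-like receptors were the members that did not pass. P2ry12, the ADP receptor that guides microglial processes to injury, stood at 35, 43.9 and 48.7 CPM in HOM, 37.4, 42.2 and 48 CPM in HET, and 40.1, 43.1 and 47.7 CPM in WT. Its groups overlapped, with 1 HOM library above the highest WT library and 2 below the lowest. The log2 fold change was -0.01 (95% interval -0.11 to 0.09, edgeR adjusted p = 0.923). That interval lies below the estimates for Csf1r and Cx3cr1 but overlaps the 95% interval of Cx3cr1 (0.08 to 0.28). The difference between the genes was not tested. Exons of P2ry12 overlap those of Med12l on the other strand by 9 bases.

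P2ry13, a second ADP receptor, stood at 11.7, 12.4 and 14.3 CPM in HOM, 9.93, 11.4 and 14.3 CPM in HET, and 9.85, 11.5 and 12.8 CPM in WT. Its log2 fold change was 0.15 (95% interval 0.03 to 0.27, edgeR adjusted p = 0.125), and 5 HOM libraries were above the highest WT library. This size is close to that of Siglech, which passed. Gpr34, a receptor for lysophosphatidylserine, had 13.2, 15.4 and 19.2 CPM in HOM, 11.6, 14 and 16.4 CPM in HET, and 13.6, 14.4 and 17 CPM in WT. The groups overlapped, and the log2 fold change was 0.08 (95% interval -0.05 to 0.21, edgeR adjusted p = 0.476).

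Selplg and Siglech encode surface glycoproteins, the P-selectin ligand PSGL-1 and a sialic acid-binding lectin that signals through the adaptor DAP12. Selplg stood at 27.3, 30.7 and 37.1 CPM in HOM, 24.7, 28.1 and 31 CPM in HET, and 22.2, 27.1 and 28.7 CPM in WT. In 7 HOM libraries it exceeded every WT library (log2 fold change 0.24, SE 0.057, edgeR adjusted p = 0.0127). Siglech stood at 20.1, 22.9 and 26 CPM in HOM, 18.5, 20 and 22.2 CPM in HET, and 18.1, 20.5 and 22.1 CPM in WT. It too exceeded every WT library in 7 HOM libraries (log2 fold change 0.16, SE 0.045, edgeR adjusted p = 0.0278). The Siglech call was lost without WT 2, WT 3, WT 5 or HOM 10, with edgeR adjusted p of 0.0567, 0.0559, 0.0643 and 0.0589. It was also lost when the fit held only HOM and WT (0.0541).

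Tmem119 and Olfml3 had the largest changes among the 9 genes. Tmem119 encodes a membrane protein used to tell microglia from other macrophages. It stood at 22.8, 24.4 and 31.2 CPM in HOM, 20.4, 23 and 25.5 CPM in HET, and 14.5, 20.2 and 22.8 CPM in WT. In 9 HOM libraries it was above the highest WT library (log2 fold change 0.34, SE 0.069, edgeR adjusted p = 0.00362). Olfml3 encodes a secreted olfactomedin-domain protein. It stood at 16.4, 19.1 and 23.5 CPM in HOM, 13.7, 16.4 and 18.1 CPM in HET, and 14.5, 15.3 and 18.2 CPM in WT. In 6 HOM libraries it was above the highest WT library (log2 fold change 0.30, SE 0.06, edgeR adjusted p = 0.00323).

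HET did not differ from WT past the threshold for any of the 9 genes. By edgeR 0 of the 9 passed, beside 0% of all genes, and DESeq2 and limma voom also called 0 of the 9. At an unadjusted p under 0.05 edgeR gave 1 of the 9, Tmem119, and 9.6% of all genes. Over all genes DESeq2 called 12 and limma voom 14. The median log2 fold change of the 9 genes was 0.05. Tmem119 had the largest, 0.18 (95% interval 0.05 to 0.32, edgeR adjusted p = 0.42), and P2ry12 the lowest, -0.06 (95% interval -0.15 to 0.04). HOM against WT and HET against WT share the 8 WT libraries.

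Between HOM and HET, edgeR called 0 of the 9 genes, beside 0.0372% of all genes (0.0124% higher and 0.0248% lower). All 9 estimates were positive, with a median log2 fold change of 0.15, and 7 of the 9 had an unadjusted p under 0.05, against 8.54% of all genes. Olfml3 differed by 0.23 on the log2 scale (95% interval 0.12 to 0.34, edgeR adjusted p = 0.126), and Cx3cr1 0.20 (95% interval 0.11 to 0.29, edgeR adjusted p = 0.126). The calls changed with the test: DESeq2 called 4 of the 9 (Csf1r, Olfml3, Siglech and Cx3cr1), beside 0.31% of all genes. By limma voom 3 were called (Olfml3, Siglech and Cx3cr1), beside 0.261% of all genes. They also changed within edgeR. Siglech was called without HOM 1 (edgeR adjusted p = 0.0313) and without HOM 1 and HOM 2 (0.0458), and Csf1r with a score of border macrophage markers as a term (0.0423).

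With the number of Q331K alleles as a numeric term, the same 6 genes as in HOM against WT were called higher, beside 7.78% of all genes (3.99% higher and 3.79% lower). The slope was 0.17 per allele on the log2 scale for Tmem119 (SE 0.034, edgeR adjusted p = 0.00271) and 0.15 for Olfml3 (SE 0.03, edgeR adjusted p = 0.00259). For Cx3cr1 and Siglech the slope was 0.09 each, although their HET means (51.8 and 20.1 CPM) were not above their WT means (52.4 and 20.5 CPM). A slope past the threshold therefore does not show an intermediate level in HET. Both slope calls were lost with the meningeal score as a term (edgeR adjusted p = 0.0571 for Cx3cr1 and 0.0803 for Siglech), with the border macrophage score (0.0513 and 0.0613) and without WT 6 and HOM 3 (0.0741 and 0.064). Both were also lost without HOM 10 (0.0509 and 0.0733), and that of Siglech without any 1 of WT 2, WT 3, WT 5, HOM 3, HOM 4 or HOM 8 (0.0524 to 0.0659).

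**Figure D2:**
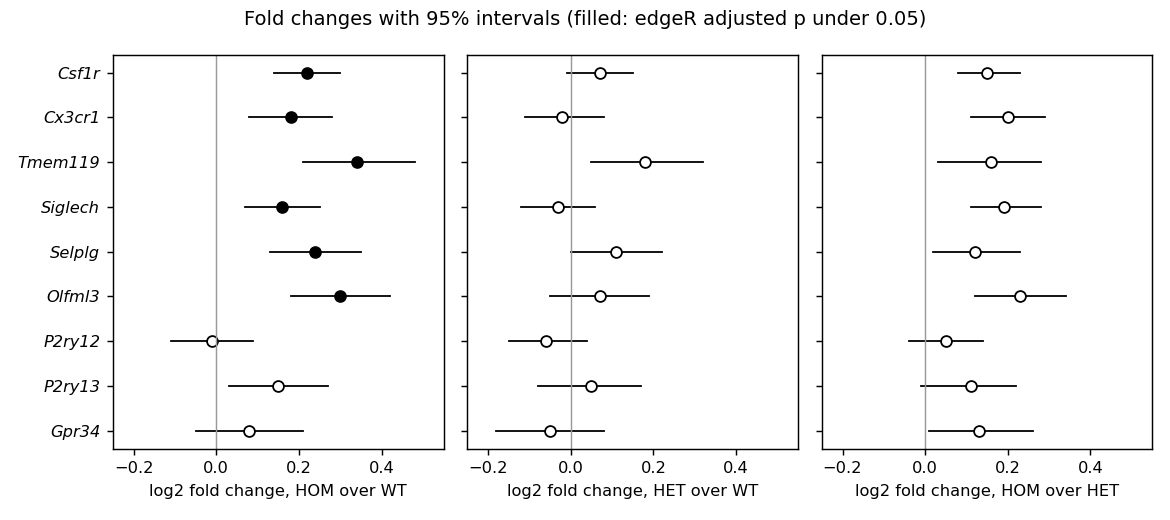
Log2 fold change of each gene (rows) for HOM over WT, HET over WT and HOM over HET (panels), with 95% intervals and filled points where the edgeR adjusted p is under 0.05. Filled points are confined to HOM over WT, where 6 of the 9 genes carry one.

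As a mean over the 9 genes, which P2ry12 did not follow, most HOM libraries were high. The mean log2 CPM of the 9 was 4.84, 4.89 and 5.15 in HOM, 4.65, 4.76 and 4.9 in HET, and 4.63, 4.74 and 4.86 in WT. It exceeded the highest WT library in 7 HOM libraries and 1 HET library. At least 7 of the 9 genes were above their median of the 28 libraries in 8 HOM, 1 HET and 0 WT libraries. Single libraries shaped the ends of the ranges: HOM 10 was the highest HOM library for 8 of the 9 genes and HOM 7 the lowest for 5, while WT 8 was the highest WT library for 5.

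Relative to the other 8 genes, P2ry12 was lower in HOM than in WT. Its log2 level relative to the mean of the other 8 genes was 0.32, 0.6 and 0.76 in HOM, 0.45, 0.74 and 0.87 in HET, and 0.74, 0.77 and 0.9 in WT. In 9 of the 10 HOM libraries it was below the lowest WT library, with a mean difference of -0.22 on the log2 scale. Gpr34 was lower by the same measure (-0.12, with 4 HOM libraries below the lowest WT library), and Tmem119 and Olfml3 were higher (0.18 and 0.13). These relative levels are a description without a test, and they show unequal change between the genes rather than a fall of any of them.

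**Figure D3:**
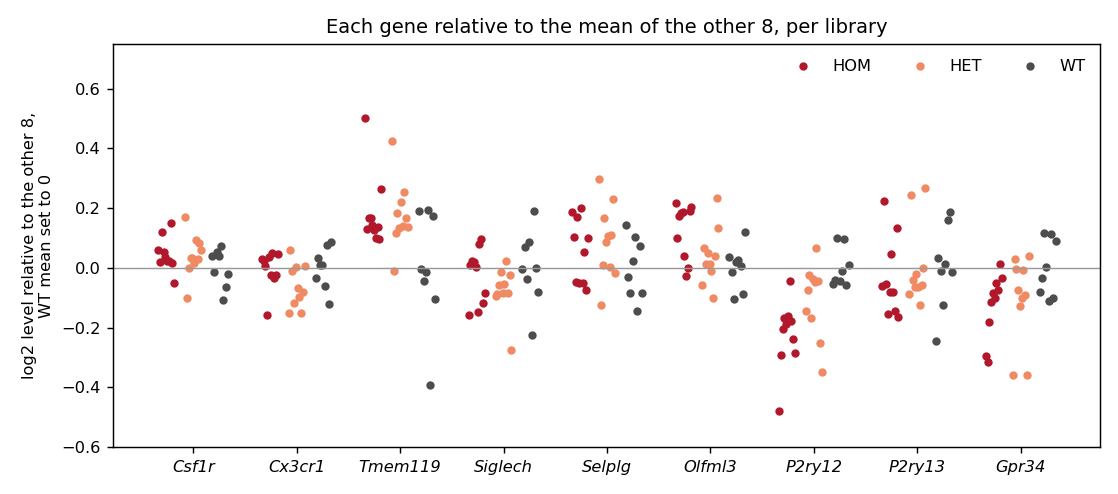
Log2 level of each gene relative to the mean of the other 8 in every library (points), by genotype (HOM, HET, WT), with the WT mean of each gene set to 0. P2ry12 lies below the lowest WT library in 9 of the 10 HOM libraries, and Olfml3 above the highest in 6.

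Levels per kilobase of exon give an approximate order of the genes. The WT means were 17.9 CPM per kb for Csf1r and 17.1 for P2ry12, whose WT ranges overlapped. Cx3cr1 followed at 11.6 CPM per kb, then Tmem119 at 8.66, Gpr34 at 7.05, Selplg at 6.13 and Siglech at 6.06, with overlapping WT ranges between neighbours from Tmem119 on. P2ry13 was at 4.52 and Olfml3 lowest at 2.53 CPM per kb. The exon length used for Olfml3, 6161 bases, exceeds its whole span in the deposited table (chr3:103733700-103738001). Its level may therefore be too low, and its place in the order is not secure. Exon lengths are from GENCODE vM21, whose models of several members, Olfml3 and Csf1r most of all, extend beyond the spans in the deposited table, so the per-kb levels are uncertain to that extent.

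Deviations from the genotype means showed which genes moved together among the 28 libraries; these share depth and library effects and carry no test. Over the 36 pairs of members, Pearson's r ran from -0.02 (Tmem119 with P2ry12) to 0.82 (Tmem119 with Selplg), with a median of 0.42. Tmem119 and Selplg also lie close together on the genome, and whether this bears on their r was not tested. Cx3cr1 and Olfml3 were closest to the mean of the other 8 (r = 0.77 and 0.76), and P2ry13 was farthest (0.31). Among 13914 other genes, those most like the mean of the 9 were Hk2 (r = 0.85), Emr1 (0.82), Ly86, Pbxip1 and Cat (0.81 each), Fcrls and Sdr42e1 (0.79 each) and Naaa (0.77), where the 99th percentile was 0.57. Emr1, which encodes the macrophage antigen F4/80, was higher in HOM than in WT (log2 fold change 0.27, edgeR adjusted p = 0.0107), whereas the estimate for Fcrls, another microglia marker, was -0.10 on the log2 scale (edgeR adjusted p = 0.33).

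Over all genes 3.9% were higher in HOM than in WT and 3.71% lower. Of 38 other microglia genes tested, 11 were higher in HOM than in WT and 0 were lower, with a median log2 fold change of 0.15. They included the complement subunits C1qc (46.5 ± 4.82 CPM in HOM, 38.3 ± 2.58 CPM in WT; log2 fold change 0.28, edgeR adjusted p = 0.00323) and C1qb (0.20, 0.0133). Entpd1, an ectoenzyme that degrades ATP and ADP, rose by 0.26 (edgeR adjusted p = 0.00447). Aif1, which encodes IBA1, the Fc receptor gene Fcgr3 and the phosphatase gene Inpp5d rose by 0.21, 0.28 and 0.21 (edgeR adjusted p = 0.00753, 0.0127 and 0.0136).

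Among 13 microglial transcription factor genes, 2 were higher and 1 lower, beside 3.9% and 3.71% of all genes. Spi1, which encodes PU.1 and is listed in the table as Sfpi1, averaged 3.18 ± 0.249 CPM in HOM and 2.57 ± 0.313 CPM in WT (log2 fold change 0.31, SE 0.077, edgeR adjusted p = 0.0156). Irf5 rose by 0.28 (edgeR adjusted p = 0.0163). Mef2c, which neurons also express, fell by 0.14 on the log2 scale (edgeR adjusted p = 0.0338), a call lost without any 1 of 6 single libraries (highest edgeR adjusted p 0.0938, without WT 6). Irf8 and Sall1 did not pass, with log2 fold changes of 0.17 and 0.12 (edgeR adjusted p = 0.133 and 0.118).

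The ligands of these receptors did not pass. Csf1 averaged 21.4 ± 1.94 CPM in HOM and 21.7 ± 1.38 CPM in WT, and Il34 51.4 ± 2.2 CPM in HOM and 48.9 ± 3.34 CPM in WT. The fractalkine gene Cx3cl1 averaged 635 ± 64 CPM in HOM and 618 ± 34.1 CPM in WT, and Tgfb1 3.9 ± 0.431 CPM in HOM and 3.56 ± 0.316 CPM in WT. Beside 3.9% of all genes higher and 3.71% lower, 2 of 21 ligand and signalling genes tested were higher and 0 lower. They were the TGF-beta receptor gene Tgfbr2 (log2 fold change 0.17, edgeR adjusted p = 0.0294) and Entpd2 (0.22, 0.0453), whose calls were lost without any 1 of 6 and of 15 single libraries, with highest edgeR adjusted p of 0.0561 (without WT 1) and 0.0929 (without WT 5).

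The 27 tested genes of the disease-associated state gave 5 higher and 0 lower in HOM, beside 3.9% and 3.71% of all genes. The median log2 fold change of the 27 was 0.11. Cd68, a lysosomal membrane protein of phagocytes, rose by 0.20 (edgeR adjusted p = 0.0214). The receptor tyrosine kinase gene Axl rose by 0.13 (edgeR adjusted p = 0.022), a call lost without WT 3 or WT 6 (0.0502 and 0.0503).

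**Figure D4:**
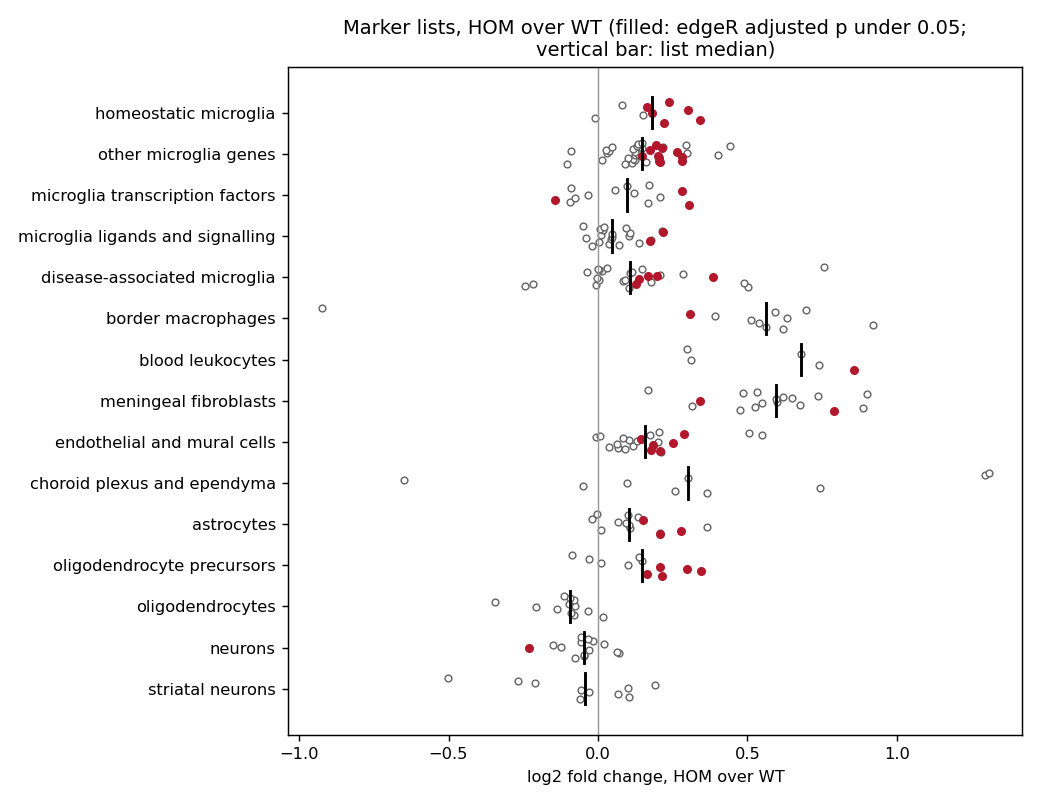
Log2 fold change of HOM over WT for every tested gene of each list (points), filled where the edgeR adjusted p is under 0.05, with a bar at the median of the list. The 9 homeostatic genes have a median of 0.18, and the meningeal fibroblast list one of 0.60 with 2 filled points.

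Some markers of other cell types also differed between HOM and WT, where 3.9% of all genes were higher and 3.71% lower. All 17 meningeal fibroblast genes had a positive estimate for HOM over WT, with a median of 0.60, and 2 passed, Col1a1 and Igfbp2. Their summed level was 351 to 1400 CPM in HOM, 426 to 977 CPM in HET and 309 to 645 CPM in WT. The 11 border macrophage genes had a median of 0.56 for HOM over WT, with 10 positive estimates. They summed to 25.3 to 56.4 CPM in HOM, 22 to 43.7 CPM in HET and 19.2 to 33.3 CPM in WT. Stab1 alone averaged 22.3 CPM in HOM and 18 CPM in WT, so these sums largely follow that gene. Of the 11, only Stab1 was called higher, a call lost without WT 6 (edgeR adjusted p = 0.0561). The Col1a1 and Igfbp2 calls were lost without any 1 of 8 and of 10 single libraries, with highest edgeR adjusted p of 0.0734 and 0.0821, both without WT 6.

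Of 16 blood leukocyte genes, 5 had enough reads to be tested and 1 was called higher, Ccr2 (0.275 ± 0.132 CPM in HOM, 0.154 ± 0.0587 CPM in WT, edgeR adjusted p = 0.0499), a call lost without any 1 of 23 single libraries (highest edgeR adjusted p 0.111, without WT 6). The summed level was 0.905 to 4.78 CPM in HOM, 0.784 to 3.08 CPM in HET and 0.709 to 3.32 CPM in WT. The lymphocyte markers Cd3e, Cd3d, Ms4a1 and Nkg7 had 0 reads in 20, 18, 21 and 17 of the 28 libraries. Astrocyte genes gave 3 higher of 14 (Gja1 and Aqp4 among them), oligodendrocyte precursor genes 5 of 11 (Pdgfra and Ptprz1 among them) and endothelial and mural genes 6 of 22 (Cdh5 and Itm2a among them), with 0 lower in each. Neuron genes gave 1 lower of 14, Gad1. Over all genes 3.9% were higher and 3.71% lower in HOM against WT. No oligodendrocyte, choroid plexus, striatal neuron or red blood cell gene passed in edgeR, and the medians of the first 3 of these lists were -0.09, 0.30 and -0.04. Marker estimates for HET also departed from 0, with no call in these lists. In HET over WT the striatal median was -0.51 (0 of 10 genes positive) and the meningeal median 0.41 (17 of 17 positive). In HOM over HET they were 0.44 (10 of 10 positive) and 0.14 (17 of 17 positive). The summed striatal level (lowest, median, highest) was 301, 325 and 483 CPM in HET and 265, 336 and 832 CPM in WT. In HOM it was 287, 431 and 699 CPM. The HET and WT medians of this sum were close, and WT 3 was the highest library. The cause was not tested.

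Marker scores, the mean log2 CPM of the meningeal or the border macrophage list in each library, were also fitted as a term. In HOM against WT these fits gave fewer calls among the 9 genes and among all genes. In HOM against HET the border macrophage score gave more calls, 1 of the 9 and 14 over all genes, against 0 and 6. The share of all genes called in HOM against WT was 2.55% with the meningeal score, 3.59% with the border macrophage score and 3.16% without WT 6 and HOM 3, against 7.61% with no such change. With the meningeal score 3 of the 9 passed in HOM against WT: Csf1r (log2 fold change 0.18, edgeR adjusted p = 0.0168), Olfml3 (0.26, 0.0267) and Tmem119 (0.28, 0.0294). Selplg, Cx3cr1 and Siglech then had edgeR adjusted p of 0.0636, 0.0688 and 0.0959, with estimates of 0.21, 0.18 and 0.15. With the border macrophage score 4 of the 9 passed, and Cx3cr1 (0.0582) and Siglech (0.0696) did not. Without WT 6 and HOM 3 together, Csf1r, Olfml3, Tmem119 and Selplg passed (edgeR adjusted p from 0.00905 to 0.0407), and Siglech (0.0633) and Cx3cr1 (0.0733) did not. Spi1 did not pass with the meningeal score (0.0565) or without those 2 libraries (0.0521). Nor did Emr1, Fcgr3, Inpp5d, Cd68 and Axl, at 0.0785, 0.0758, 0.0683, 0.0961 and 0.0689 with the score and 0.0504, 0.0562, 0.065, 0.0772 and 0.0543 without the libraries. C1qb (0.0692), Irf5 (0.0594) and, of the other cell types, Cdh5 (0.0784), Itm2a (0.0848) and Aqp4 (0.0605, with its estimate at 0.18 against 0.28) did not pass with the meningeal score. Itm2a also did not pass with the border macrophage score (0.0527) or without WT 6 and HOM 3 (0.0784).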

How the data were processed

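The authors deposited raw read counts per gene for 28 libraries, whole numbers that were not normalised, as the values show. Per the labels' protocols, polyA RNA from snap-frozen frontal cortex was made into stranded libraries. Trim Galore 0.4.3, HISAT2 2.0.5 and GRCm38 are named in the submitters' processing notes. How reads were counted, with which strand setting and annotation, is not given in the sources used here.

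From these counts, the 57 genes that filled several rows (122 of 25965 rows) were summed by gene identifier, giving 25900 genes. Genotypes in the sample titles set the groups. filterByExpr kept 16110 genes, TMM scaled the libraries, and edgeR 4.0.16 (R 4.3.3) fitted all 28 libraries in 1 quasi-likelihood model with a mean per genotype, or with the number of Q331K alleles as a numeric term. Tests were two-sided with Benjamini-Hochberg adjustment over all genes and a threshold of 0.05. A 95% interval is the normal one from the SE, which was taken from the estimate and its F statistic. CPM values use the TMM-scaled library size. No 2 of the 378 library pairs agreed within sampling noise (lowest chi-square per degree of freedom 6.02). The steps were tested on simulated data, with folds of HOM over WT larger than those of the homeostatic genes.

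The members and gene lists were chosen with earlier results of these data known. All 9 members are named whatever their values, together with Tardbp, up to 6 called genes of the lists of other microglia genes, transcription factors and signalling and up to 2 of each other list by smallest p, 8 set ligands, transcription factors and markers (2 others are not reported here), and the 8 genes most like the mean of the 9. Genes with clone-like names in the table are counted and not named. List symbols were matched to older names by gene identifier, and Bin2 and Lhfpl3 were not matched. Alternatives were DESeq2 1.42.0, limma 3.58.1 (voom with quality weights), other scalings and filters, a replicate block, marker scores as a term, and each library left out. Applying them to the named genes outside the 9, and counting all genes in the fits with marker scores or fewer libraries, was chosen after seeing the data.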

Additional observations from a re-analysis of the deposited data

Results flagged for a closer look

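In 19 of 150 groups of libraries checked, for the genes named and the mean of the 9 homeostatic genes, 1 library stood apart from the rest of its genotype by Dixon's criterion, which chance alone meets in about 1 in 20 groups. Of 27 groups of the 9 genes, 4 did so. These groups are not independent, and the 8 genes most like the mean of the 9 were picked by their deviations in these same libraries. The count of 19 can therefore not be set against that rate. HOM 10 was the highest HOM library for Cx3cr1 (71.8 CPM), Olfml3 (23.5 CPM), the mean log2 CPM of the 9 genes (5.15), Axl (73.5 CPM), Sall1 (31.2 CPM), Ly86 (13.5 CPM) and Cat (46.9 CPM). WT 8 was the highest WT library for Cx3cr1 (60.2 CPM), Olfml3 (18.2 CPM), Hk2 (5.76 CPM), Ly86 (11.3 CPM) and Cat (47.1 CPM). HOM 3 was the highest HOM library for Stab1 (29.2 CPM) and Aqp4 (177 CPM). Among HET libraries, HET 4 was the highest for Col1a1 (4.66 CPM) and Naaa (39 CPM), HET 10 for Tardbp (358 CPM) and Cx3cl1 (804 CPM), and HET 6 for Csf1 (24.4 CPM). Why these libraries stood apart was not tested.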

How the results depend on the processing

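In HOM against WT, 6 of the 9 genes were called under every scaling and filter tried, by DESeq2 and by limma voom, and 3 with the meningeal score as a term. With 1 library left out the count ran from 4 (without WT 2) to 6. Over all genes that comparison gave 1226 calls, 737 with the replicate block and 595 (without WT 6) to 1345 with 1 library left out, with 725 without WT 2; it gave 411 with the meningeal score, 579 with the border macrophage score and 509 without WT 6 and HOM 3. HET against WT gave 0 calls over all genes, 12 by DESeq2, 14 by limma voom, 1 with total count scaling, 1 with a filter of 1 CPM in 8 libraries, 4 with HET and WT alone, 2 without HOM 1 and HOM 2, and 0 to 3 with 1 library left out. HOM against HET gave 0 of the 9 genes, 4 by DESeq2, 3 by limma voom, 1 without HOM 1 and HOM 2, 1 with the border macrophage score, and 0 to 1 with 1 library left out (Siglech, without HOM 1). Over all genes it gave 6 calls, 50 by DESeq2, 42 by limma voom, 14 with the border macrophage score and 3 (without HET 2, HET 7, HOM 3, HOM 8 or HOM 10) to 15 (without HET 10) with 1 library left out, with 12 without HOM 1. The slope gave 6 of the 9 genes, 4 with either score or without WT 6 and HOM 3, 4 to 6 with 1 library left out (4 without HOM 10), and over all genes 1254 calls, 821 with the replicate block, 503 with the meningeal score, 632 with the border macrophage score, 608 without WT 6 and HOM 3, and 681 to 1401 with 1 library left out. The causes of these shifts were not tested.

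Only estimates near 0 changed sign among the 9 genes. The log2 fold change of P2ry12 in HOM against WT was 0.0111 by limma voom, 0.0353 without HOM 1 and HOM 2, 7e-04 with the meningeal score, and -0.0337 to 0.0161 with 1 library left out. Its slope was 0.0063 by limma voom, 2e-04 with upper-quartile scaling, 2e-04 with the replicate block, 0.0176 without HOM 1 and HOM 2, 0.0045 with the meningeal score, and -0.016 to 0.0094 with 1 library left out. Cx3cr1 in HET against WT ran from -0.0373 to 0.0126 with 1 library left out. The labels do not say that libraries with the same number are paired, and most such pairs did not deviate together. Their r ran from -0.158 to 0.126 between HOM and WT (1 of 8 pairs over 0.1, 0 best with their own number), from -0.048 to 0.183 between HET and WT (1 of 8, 0 best) and from -0.164 to 0.134 between HOM and HET (3 of 10, 3 best). With the replicate block 6 of the 9 genes were called in HOM against WT and 4 in the slope, without Siglech (edgeR adjusted p = 0.0554) and Cx3cr1 (0.0561), and Fcrls was called lower in HOM (log2 fold change -0.15, edgeR adjusted p = 0.0446). The calls of Col1a1, Mef2c, Tgfbr2, Igfbp2 and Ccr2 were lost with it (edgeR adjusted p from 0.0519 to 0.154). DESeq2 gave Ccr2 no adjusted p.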
